A study of Mus musculus with 5 samples.

Results

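The IL-1 receptor family cluster of mouse chromosome 1 holds Il1r2, Il1r1, Il1rl2, Il1rl1, Il18r1 and Il18rap side by side, all transcribed in the same direction. Its H3K27ac peaks were chosen by position alone. A peak belonged to the cluster when its midpoint lay in the window from 20 kb before Il1r2 to 20 kb beyond Il18rap (mm10, chr1:40054079-40571705, 517.6 kb). It was assigned to the member with the nearest transcription start site (TSS). By this rule 67 of the 124158 peaks of the series were members. Il1r2 received 16 peaks, Il1r1 3, Il1rl2 4, Il1rl1 24, Il18r1 12 and Il18rap 8.

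H3K27ac, an acetyl mark on histone H3 found where promoters and enhancers are active, was mapped with CUT&Tag, in which an antibody brings a transposase to the mark and adapters are inserted into the DNA beside it. The cells were CD3+CD4+Foxp3-YFP+ regulatory T (Treg) cells sorted from C57BL/6 mice at 2 weeks of age, from the large intestine. Ctrl mice were Foxp3CreSetd2flox/+ and KO mice Foxp3CreSetd2flox/flox, so that both groups carried a Cre recombinase made from the Foxp3 locus, which acts in Treg cells, and at least 1 floxed allele of Setd2, the methyltransferase that places H3K36me3 over transcribed genes. Each group had 2 libraries, each made from cells pooled from several female and male littermates, so the spread between libraries is a spread between pools. The comparison addresses whether loss of Setd2 in Treg cells alters H3K27ac at these receptor genes, including Il1rl1.

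The members encode receptors of the IL-1 family of cytokines. Il1r1 encodes the signalling receptor for IL-1, which is completed by the shared accessory chain IL1RAP, and Il1r2 encodes a decoy receptor that binds IL-1 without passing on a signal. Il1rl2 encodes the receptor for the IL-36 cytokines. Il1rl1 encodes ST2, the receptor for the alarmin IL-33, which marks a population of tissue Treg cells, is common on Treg cells of the gut and depends on the transcription factor GATA3. Il18r1 and Il18rap encode the ligand-binding chain and the accessory chain of the IL-18 receptor.

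The promoters of 4 members are shown here because they differ in the number of GATA motifs. Sequences are from RefSeq (GRCm38.p6, the assembly of mm10), plus strand, 250 bases before to 50 bases after an annotated start, in lower case with matches to a GATA motif in capitals (the letters AGATAA, the variant of these that reads AGATAG, and likewise the letters TGATAA with their variant TGATAG, on either strand). A window at the midpoint of the Il1rl1 intron peak with the lowest fold change of KO over Ctrl is given with them. The 5 promoters and the intron window lie at chr1:40429320-40429619, chr1:40439379-40439678, chr1:40085843-40086142, chr1:40465302-40465601, chr1:40515112-40515411 and chr1:40436889-40437188, in the order of the lines.
Il1rl1 upstream promoter: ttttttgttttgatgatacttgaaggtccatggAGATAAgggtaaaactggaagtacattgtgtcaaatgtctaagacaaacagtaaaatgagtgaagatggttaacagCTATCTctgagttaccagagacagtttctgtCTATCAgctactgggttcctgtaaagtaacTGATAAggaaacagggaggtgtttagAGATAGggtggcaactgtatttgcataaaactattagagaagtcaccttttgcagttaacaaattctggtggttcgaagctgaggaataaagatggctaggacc
Il1rl1 inner promoter: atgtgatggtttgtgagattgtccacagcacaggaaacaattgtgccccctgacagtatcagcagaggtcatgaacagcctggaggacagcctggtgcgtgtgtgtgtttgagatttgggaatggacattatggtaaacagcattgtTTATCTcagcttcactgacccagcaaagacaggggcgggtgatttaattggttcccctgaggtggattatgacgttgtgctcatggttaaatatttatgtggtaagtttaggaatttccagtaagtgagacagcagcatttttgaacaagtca
Il1r2 promoter: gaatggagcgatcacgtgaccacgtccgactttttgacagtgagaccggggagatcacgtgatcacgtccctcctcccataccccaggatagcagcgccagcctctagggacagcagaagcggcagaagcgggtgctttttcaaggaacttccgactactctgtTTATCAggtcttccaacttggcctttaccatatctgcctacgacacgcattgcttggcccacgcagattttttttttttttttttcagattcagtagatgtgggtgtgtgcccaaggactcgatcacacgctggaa
Il18r1 promoter: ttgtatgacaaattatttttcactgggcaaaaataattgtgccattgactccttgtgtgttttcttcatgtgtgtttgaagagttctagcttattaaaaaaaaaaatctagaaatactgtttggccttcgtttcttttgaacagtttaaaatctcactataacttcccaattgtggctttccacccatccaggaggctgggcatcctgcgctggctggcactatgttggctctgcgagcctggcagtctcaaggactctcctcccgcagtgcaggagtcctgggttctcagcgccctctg
Il18rap promoter: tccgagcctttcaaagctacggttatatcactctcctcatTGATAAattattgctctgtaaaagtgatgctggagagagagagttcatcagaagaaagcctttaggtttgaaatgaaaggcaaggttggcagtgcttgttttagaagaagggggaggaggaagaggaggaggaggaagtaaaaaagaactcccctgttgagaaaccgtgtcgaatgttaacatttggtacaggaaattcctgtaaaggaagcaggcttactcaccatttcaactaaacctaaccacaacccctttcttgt
Il1rl1 intron peak: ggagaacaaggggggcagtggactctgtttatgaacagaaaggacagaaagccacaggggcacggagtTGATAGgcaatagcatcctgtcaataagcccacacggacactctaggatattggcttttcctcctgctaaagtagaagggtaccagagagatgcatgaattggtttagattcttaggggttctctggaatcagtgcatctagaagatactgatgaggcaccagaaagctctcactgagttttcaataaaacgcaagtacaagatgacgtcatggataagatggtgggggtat

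The upstream promoter of Il1rl1 held 5 GATA matches, which began at −217, −141, −110, −80 and −54 from the start at 40429570. Of all 32851 RefSeq promoter windows of this length, 18 (0.0548%) held at least 5 matches, while 29.8% held at least 1. The inner promoter of Il1rl1, the Il1r2 promoter and the Il18rap promoter held 1 match each, and the windows listed for Il1r1, Il1rl2 and Il18r1 held 0. The H3K27ac peak over the upstream start of Il1rl1 (chr1:40428917-40431795) held 15 matches over its whole length, or 5.21 per kb, more per kb than 93.2% of all peaks of the series. In the cluster 5 narrower peaks, with 2 to 6 matches each, held more per kb, from 5.9 to 6.93. Over all 67 peaks of the cluster there were 118 matches, or 1.99 per kb, against 1.7 per kb over all peaks. In 300-base windows at peak midpoints, at least 1 GATA match was present in 37.3% of the cluster's windows and in 38.3% of all other windows. The corresponding shares were 8.96% and 9.39% for the AP-1 motif (TGANTCA), 31.3% and 23.9% for the RUNX motif (TGTGGT), 8.96% and 8.33% for the STAT motif (TTCNNNGAA), and 2.99% and 4.0% for the forkhead motif (TGTTTAC), each searched on both strands. A match is a run of letters, not a measured binding site.

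Library depth lay between 2395002 and 4712473 counts in peaks, and the cluster held 1304 and 1769 of these counts in Ctrl and 1792 and 2456 in KO. Levels are given as CPM, counts relative to each library's sum over the peaks tested, with TMM factors. Promoter peaks were present at 6 of 6 T and Treg cell markers, with a summed level of 704 and 788 CPM in Ctrl and 808 and 993 CPM in KO. None of the 5 markers of mast cells and basophils, which also use ST2, had a promoter peak. B cell markers (2 of 4 with a promoter peak, none at Ms4a1 and Pax5) summed to 11.3 to 19.6 CPM in Ctrl and 14.6 to 20.1 CPM in KO. Myeloid markers (2 of 5, none at Lyz2, Csf1r and Fcgr1) summed to 7.74 to 24.0 and 10.8 to 24.6 CPM, epithelial markers (4 of 4) to 14.0 to 21.1 and 14.9 to 17.5 CPM, and stromal and endothelial markers (3 of 4, none at Col1a1) to 51.1 to 81.8 and 55.9 to 72.4 CPM. In bulk libraries, fewer cells carrying a mark and less of the mark per cell cannot be told apart.

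The 67 peaks covered 59.4 kb, or 11.5% of the window, and were unevenly spread. They fell into 12 stretches separated by gaps of more than 10 kb, a division made after the positions were seen. A gap of 130 kb separated the Il1r2 stretch (57.6 kb long, 21.8% of the cluster's H3K27ac as a mean of the 4 libraries) from the peaks of Il1r1. The Il1r2 stretch begins at the edge of the window, and 19 peaks nearest to Il1r2 lie outside it. Its length is therefore that of the part inside the window. The sequence upstream of Il1rl1 formed a stretch of its own, 20.3 kb long with 10 peaks and 18.7% of the signal. The next stretch, 37.1 kb long with 14 peaks, ran into the Il1rl1 gene and held 17.6%, and that of Il18r1, 28.9 kb long with 12 peaks, held 25.4%. The peaks of Il1r1 and Il1rl2, between Il1r2 and the Il1rl1 stretches, were few for the length of sequence.

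**Figure D1:**
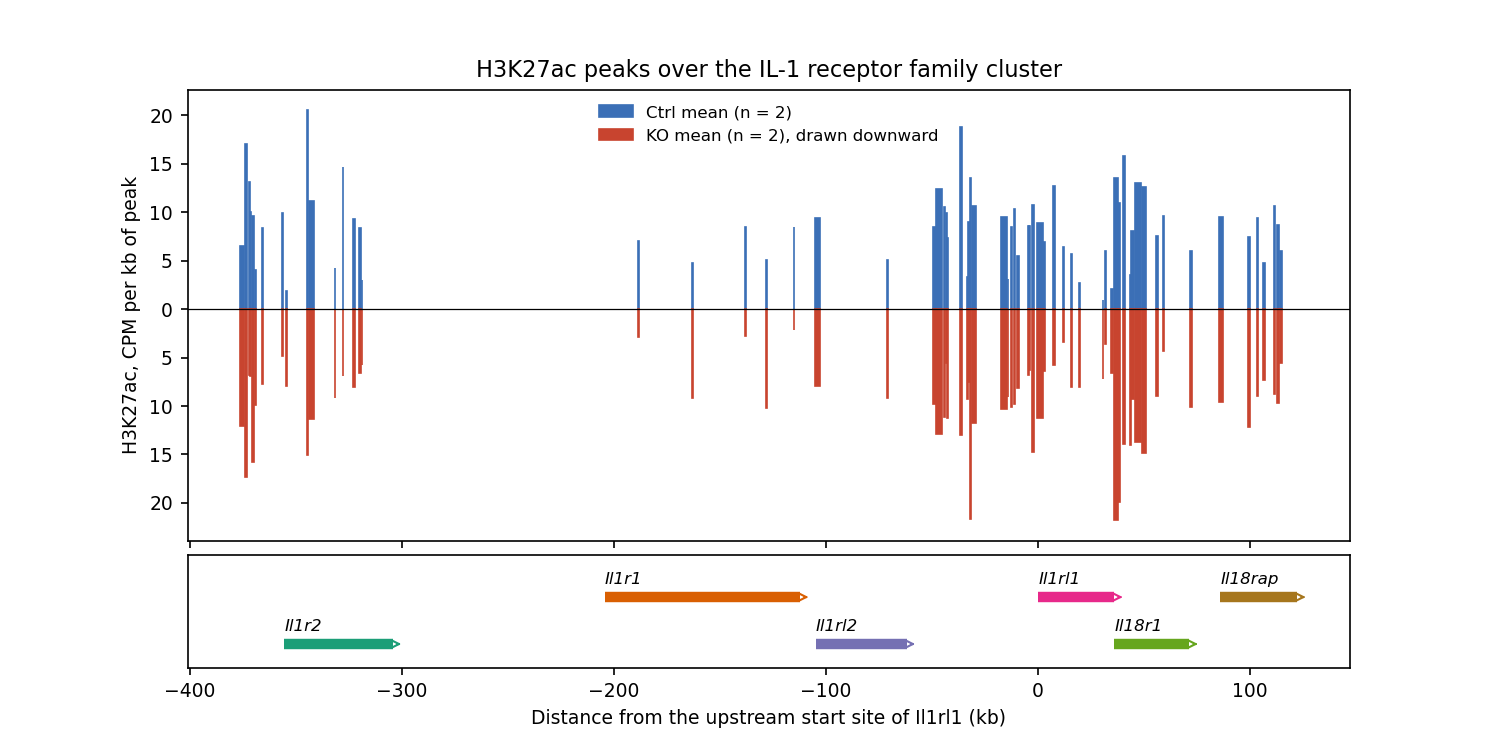
H3K27ac of the 67 peaks of the cluster against distance from the upstream start of Il1rl1 (kb), as mean CPM per kb of peak in Ctrl (blue, upward) and KO (red, downward), 2 libraries each, with the gene spans below. Peaks are crowded around Il1r2 and from upstream of Il1rl1 to Il18rap, and are sparse over Il1r1 and Il1rl2. The outlines of the bars make the narrowest peaks look slightly wider than they are.

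Summed over its peaks in the window, Il1rl1 had the highest level of the 6 members and Il1r1 the lowest. A further 19 peaks nearest to Il1r2 lay outside the window and are not in its total, against 0 for each other member. The rank of Il1r2 therefore holds for the window only. The level of Il1rl1 was 209 and 206 CPM in Ctrl and 240 and 205 CPM in KO, above that of 92.4% of the 14452 genes tested. Il18r1 followed with 151 and 119 CPM in Ctrl and 181 and 155 CPM in KO, and Il1r2 with 133 and 112 CPM in Ctrl and 130 and 140 CPM in KO. These 3 genes stood between the 85.1 and 92.4 percentiles of genes. The percentile of Il1r2 rests on its window peaks, while genes outside the cluster were summed over all their peaks. Il18rap had 64.2 and 54.5 CPM in Ctrl and 82.3 and 58.2 CPM in KO. Il1rl2 had 27.6 and 27.4 CPM in Ctrl and 26.8 and 25.9 CPM in KO, and Il1r1 had 5.88 and 7.44 CPM in Ctrl and 7.08 and 3.83 CPM in KO.

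Per kb of covered sequence the order was different, because Il1rl1 had the most peak sequence, 21.7 kb. The mean of the 4 libraries was 11.5 CPM per kb for Il18r1 (9.06 to 13.8 over libraries), 10.3 for Il1r2 (8.95 to 11.2) and 9.88 for Il1rl1 (9.42 to 11). It was 8.53 CPM per kb for Il18rap (7.17 to 10.8), 8.02 for Il1rl2 (7.71 to 8.22) and 5.98 for Il1r1 (3.78 to 7.34). The ranges over libraries of neighbours in this order overlapped except for Il1rl2 and Il1r1. Within every single library, Il18r1 was above Il1r2, Il1rl1 above Il18rap and Il1rl2 above Il1r1. The order of Il1r2 and Il1rl1 differed between libraries, as did that of Il18rap and Il1rl2. The high total of Il1rl1 therefore came with many peaks rather than with denser ones.

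No member passed the test between KO and Ctrl. With edgeR the log2 fold change of KO over Ctrl was 0.10 for Il1rl1 (SE 0.21, 95% interval −0.38 to 0.58), 0.32 for Il18r1 (SE 0.24, −0.22 to 0.87), 0.24 for Il18rap (SE 0.29, −0.41 to 0.90) and 0.14 for Il1r2 (SE 0.23, −0.39 to 0.67). It was −0.06 for Il1rl2 (SE 0.34, −0.84 to 0.72) and −0.31 for Il1r1 (SE 0.78, −2.09 to 1.48), whose counts were 13 and 25 in Ctrl and 19 and 16 in KO. Every member had an adjusted p of 1, and the smallest adjusted p over all genes was also 1. In edgeR 0 of 14452 genes (0%) passed an adjusted p under 0.05, while 362 (2.5%) had an unadjusted p under 0.05, none of them a member. The median log2 fold change of all genes was 0.0. The KO libraries were both higher than the Ctrl libraries for Il18r1 and both lower for Il1rl2, where the 4 values lay between 25.9 and 27.6 CPM, and the libraries overlapped for the other 4 members. With only the peaks within 3 kb of a TSS, the log2 fold change of Il18r1 was 0.81 (unadjusted p 0.0117, not passing after adjustment). Libraries that did not overlap were seen for 28.8% of all genes. The interval of Il1rl1 leaves room for changes of either sign, and its sign turned without KO replicate 1 (−0.03), as did that of Il18rap (−0.04).

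**Figure D2:**
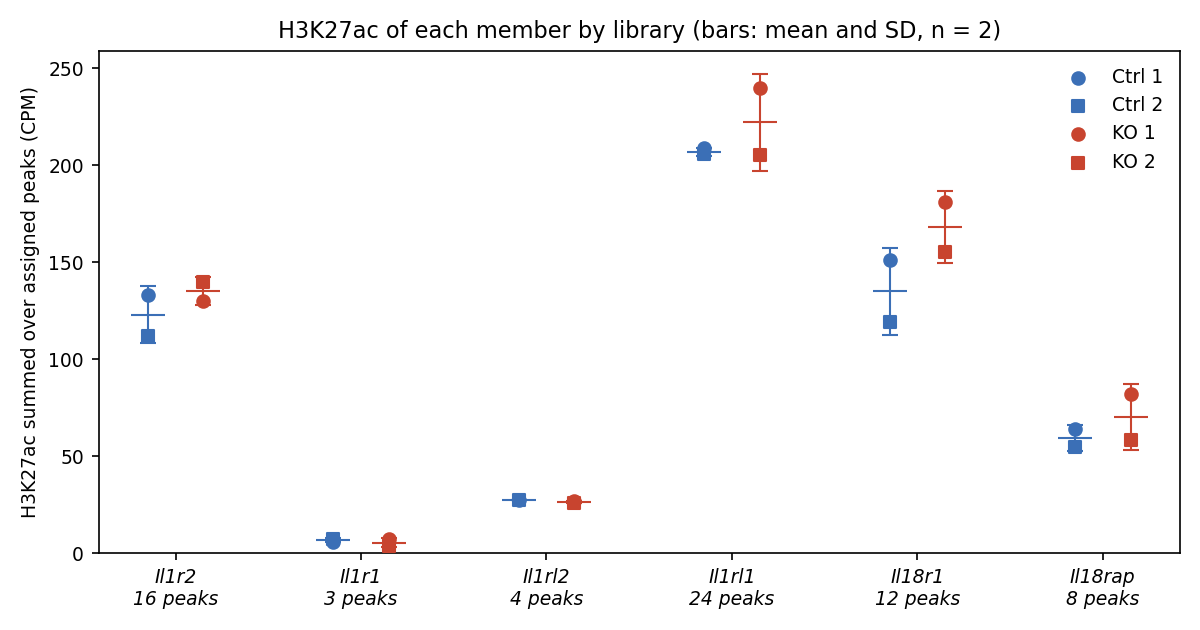
H3K27ac summed over the peaks of each member in the window (CPM) in each of the 4 libraries, with mean and SD (n = 2 per group). Il1rl1 lies highest and Il1r1 lowest in every library, and the groups are clear of each other only for Il18r1, with KO above Ctrl, and for Il1rl2, with KO slightly below.

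Summed over all 67 peaks the cluster had 590 and 526 CPM in Ctrl and 668 and 588 CPM in KO. KO replicate 2 lay just below Ctrl replicate 1, so the groups overlapped. The difference was 0.17 on the log2 scale (exact permutation test over the 4 libraries, two-sided, p = 0.667, where the smallest p that 2 against 2 libraries allow is 0.333). The gene before the cluster, Map4k4, had 305 and 390 CPM in Ctrl and 402 and 454 CPM in KO (log2 fold change 0.30, SE 0.20, adjusted p 1). The gene beyond the cluster, Slc9a4, was not among the genes tested.

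Of the 67 peaks, 50 had at least 10 counts in at least 2 libraries and were tested: 11 of Il1r2, 2 of Il1rl2, 19 of Il1rl1, 10 of Il18r1, 8 of Il18rap and 0 of Il1r1. In KO 32 of them were higher and 18 lower, with a median log2 fold change of 0.12 against −0.01 over all 74550 tested peaks. No peak of the cluster passed an adjusted p under 0.05, the smallest being 0.998. Over the series 1 peak (0.00134%) passed in edgeR and 0 in DESeq2. At an unadjusted p under 0.05, 3 cluster peaks (6.0%) were higher and 0 lower, against 4.24% of all tested peaks in either direction and 1.45% higher in KO. Of these 3 peaks, 2 reached the count minimum through their KO libraries alone and so could enter the test only by being higher in KO, and the share of 6.0% and its direction are a description. Over the cluster 4 of the 50 tested peaks entered through KO libraries alone, all of them higher, and 0 through Ctrl libraries alone. The 46 others were higher in 28 and lower in 18, and 1 of them had an unadjusted p under 0.05. DESeq2 gave 0 cluster peaks in either direction at that limit. The KO libraries were both higher than Ctrl in 12 peaks and both lower in 3, 30.0% of the 50, against 33.3% of all tested peaks (16.9% above and 16.4% below). The share of peaks with separate libraries was thus near that of the whole series.

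By class, the median change (log2) stood at 0.03 for the 11 tested promoter peaks of the cluster against 0.06 for all promoter peaks, and 0.13 for its 20 intergenic peaks against 0.11 for all intergenic peaks. For its 19 gene body peaks it was 0.14 against −0.12 for all gene body peaks. A promoter peak is one within 3 kb of a TSS. By member, 13 of 19 peaks of Il1rl1 were higher (median 0.16), 8 of 10 of Il18r1 (0.26), 5 of 8 of Il18rap (0.08) and 5 of 11 of Il1r2 (−0.13). Over all tested peaks 49.2% were higher. The 4 peaks that entered the test through KO libraries alone lie among those of Il1rl1 and Il18r1, so these counts are a description.

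**Figure D3:**
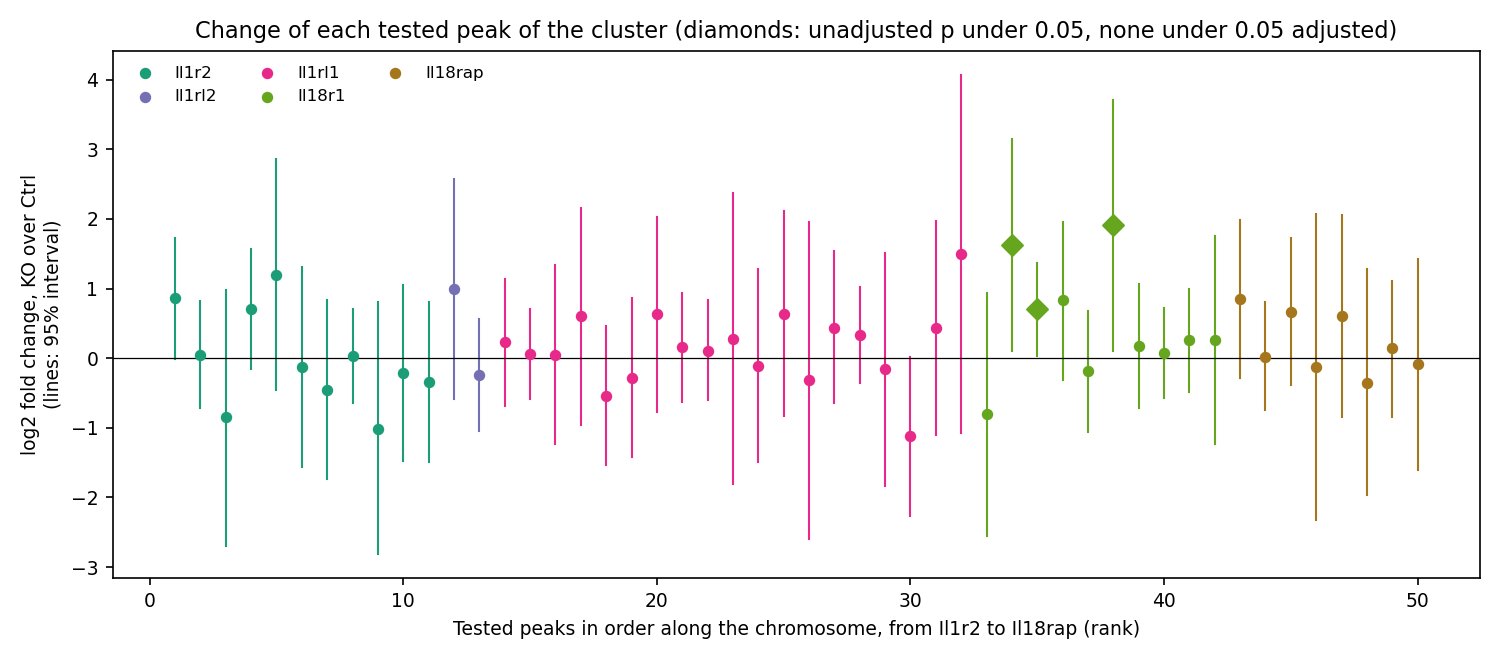
The log2 fold change of KO over Ctrl with its 95% interval for the 50 tested peaks, in order along the chromosome and coloured by member; diamonds have an unadjusted p under 0.05. The 3 diamonds were assigned to Il18r1 and all lie above 0, and the intervals of the other peaks include 0.

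Il1rl1 has an upstream start at 40429570 and inner starts at 40439627, 40439776 and 40440628, which are known to give rise to different transcripts of ST2. The peak over the upstream start (chr1:40428917-40431795, the sequence shown above with 5 GATA matches) had 18.5 and 32.4 CPM in Ctrl and 27.2 and 37.4 CPM in KO, or 41 and 109 against 73 and 156 counts. Replicate 2 was the higher library in both groups, and the groups overlapped. The log2 fold change was 0.33 (SE 0.35, 95% interval −0.35 to 1.02, adjusted p 0.998), and it was −0.01 without Ctrl replicate 1 and 0.81 without Ctrl replicate 2. No peak overlapped the inner promoter window that is printed above, and the nearest peak lay 1419 bp away. That peak (chr1:40441097-40441675) lies 0.469 kb beyond the inner start at 40440628. It had 15 and 2 counts in Ctrl and 6 and 7 counts in KO, too few to be tested.

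The highest peak of Il1rl1 was not at its promoter but 45.1 kb upstream of it, at chr1:40381494-40384438 and 2.94 kb wide. It had 33.9 and 39.0 CPM in Ctrl and 37.6 and 38.3 CPM in KO, above 92.3% of all tested peaks, and both KO values lay between the Ctrl values. The log2 fold change was 0.06 (SE 0.33, −0.59 to 0.70). It belongs to the upstream stretch of 10 peaks, which summed to 109 and 107 CPM in Ctrl and 121 and 105 CPM in KO. Of the 13 tested intergenic peaks of Il1rl1, the libraries separated in 1 (7.69%), with KO above Ctrl, against 31.0% of all tested intergenic peaks.

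Within the gene, the tested intron peaks with the lowest and the highest fold change are described, and neither passed the test. The intron peak at chr1:40436609-40437468, which lies 2.16 kb before the inner start, had 14.0 and 7.74 CPM in Ctrl and 5.59 and 4.31 CPM in KO (31 and 26 against 15 and 18 counts). Both KO libraries lay below both Ctrl libraries, and the log2 fold change was −1.12 (SE 0.59, −2.27 to 0.02, unadjusted p 0.0552, adjusted p 0.998). Without Ctrl replicate 1 the value was −0.66 and without Ctrl replicate 2 it was −1.51, with an unadjusted p of 0.0351. Further into the gene, the intron peak at chr1:40448778-40449218 had 0.905 and 1.49 CPM in Ctrl and 4.47 and 2.64 CPM in KO, from 2 and 5 against 12 and 11 counts. Its log2 fold change was 1.49 (SE 1.31, −1.08 to 4.07, unadjusted p 0.256), so its counts were too low to show a change of this size. This peak reached the count minimum through its KO libraries alone and could enter the test only by being higher in KO.

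The 3 peaks with an unadjusted p under 0.05 were assigned to Il18r1. Its promoter peak (chr1:40465384-40467237), which begins within the last bases of Il1rl1, had 26.7 and 23.5 CPM in Ctrl and 33.2 and 47.7 CPM in KO, from 59 and 79 against 89 and 199 counts. The KO values were both higher than the Ctrl values, with KO replicate 2 the highest. The log2 fold change was 0.70 (SE 0.34, 0.03 to 1.36, unadjusted p 0.0401, adjusted p 0.998), and without KO replicate 2 it was 0.37. DESeq2 gave 0.69 with an unadjusted p of 0.0829.

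The peak just before it, at chr1:40463833-40464954, lies over the end of Il1rl1 and was assigned to Il18r1 because the start of Il18r1 is 0.598 kb away. It had 2.26 and 2.38 CPM in Ctrl and 9.69 and 5.03 CPM in KO, from 5 and 8 against 26 and 21 counts (log2 fold change 1.63, SE 0.78, unadjusted p 0.0363). An intron peak of Il18r1 at chr1:40472697-40473123 had 0.905 and 2.08 CPM in Ctrl and 7.45 and 4.55 CPM in KO, from 2 and 7 against 20 and 19 counts (log2 fold change 1.91, SE 0.92, unadjusted p 0.0376). In these peaks KO was higher in each library, on few counts. Neither peak reached 10 counts in a Ctrl library, so both were tested only because of their KO counts, and the adjusted p was 0.998 for each. Without either KO library both fell below the count minimum and could not be tested. The highest peak of Il18r1, in an intron at chr1:40475345-40478143, had 40.3 and 32.7 CPM in Ctrl and 39.1 and 37.6 CPM in KO (log2 fold change 0.08, SE 0.33), with KO inside the Ctrl range.

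The accessory chain gene Il18rap had its highest peak at its promoter (chr1:40514797-40516890), with 22.2 and 17.6 CPM in Ctrl and 21.6 and 18.7 CPM in KO. The KO values again lay between the Ctrl values (log2 fold change 0.02, SE 0.40, −0.75 to 0.80).

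For the decoy receptor gene Il1r2, the peak nearest to the GENCODE start (chr1:40084952-40085287) had 7.24 and 6.55 CPM in Ctrl and 5.59 and 4.55 CPM in KO, with both KO libraries lower (log2 fold change −0.45, SE 0.66, unadjusted p 0.498). The next peak (chr1:40085601-40088241), its highest, covers the RefSeq start whose promoter is printed above. It had 33.0 and 25.9 CPM in Ctrl and 28.3 and 31.4 CPM in KO (log2 fold change 0.03, SE 0.35), and the groups overlapped. A further 7 peaks before the gene, from 29.7 to 20.8 kb upstream of the GENCODE start at 40084698, included one, singled out after its values were seen, with 9.05 and 12.5 CPM in Ctrl and 20.5 and 19.2 CPM in KO (chr1:40053347-40054993, log2 fold change 0.86, SE 0.44, unadjusted p 0.0522).

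The IL-36 receptor gene Il1rl2 had its highest peak over its start (chr1:40324373-40326508), with 21.7 and 18.5 CPM in Ctrl and 19.4 and 14.6 CPM in KO (log2 fold change −0.24, SE 0.41). The groups overlapped. At Il1r1 no peak lay within 15808 bp of the upstream promoter window. The inner start at 40266586 had a peak (chr1:40266447-40266853) with 6 and 4 counts in Ctrl and 15 and 8 counts in KO, or 2.71, 1.19, 5.59 and 1.92 CPM, too few to be tested. In its first peak (chr1:40240937-40241233) KO replicate 1 had 0 counts, which allows a level of up to 1.12 CPM (3 counts).

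**Figure D4:**
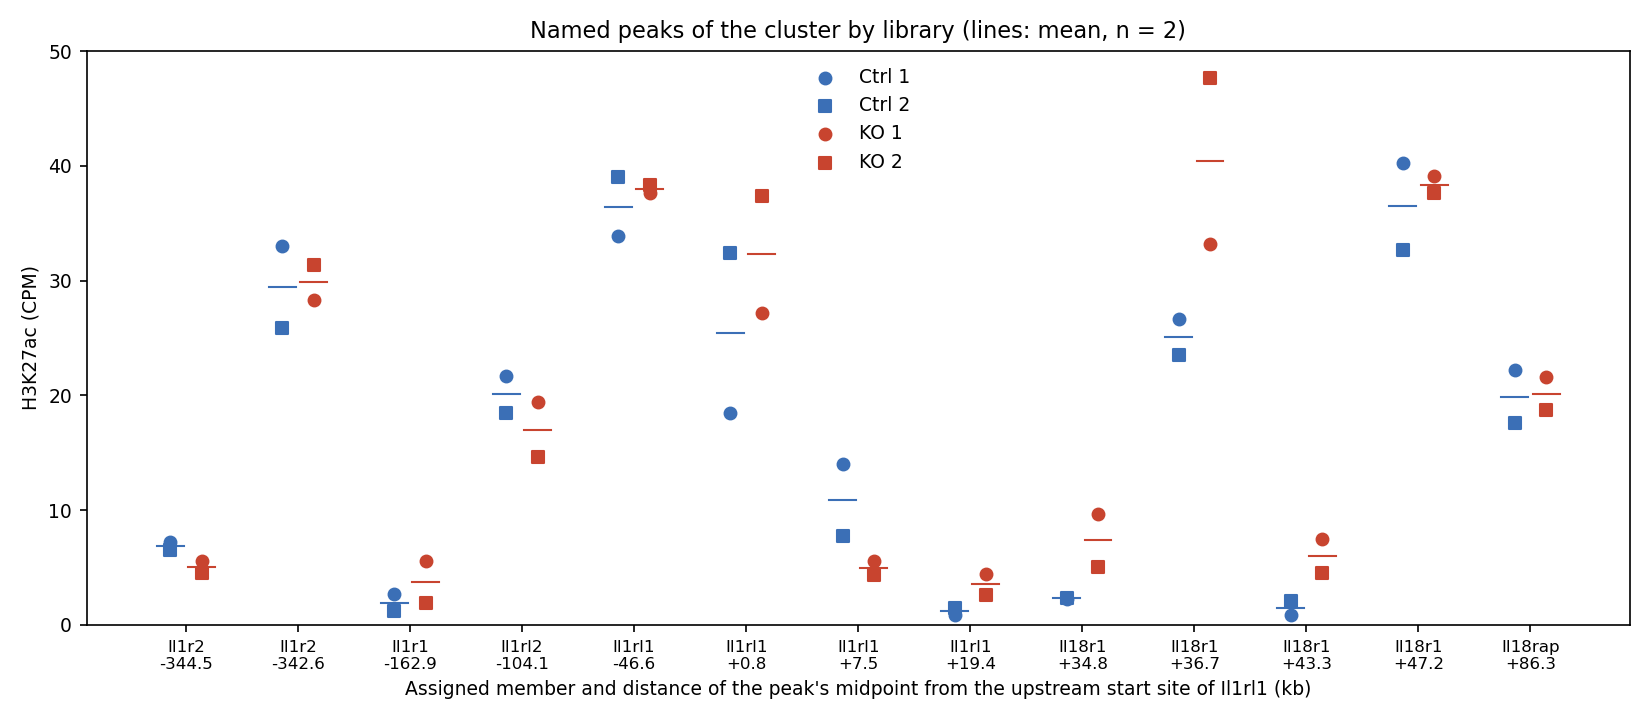
H3K27ac (CPM) of 13 peaks in each library, ordered along the chromosome and named by assigned member and distance from the upstream start of Il1rl1 (kb); lines are group means (n = 2). The groups overlap at the highest peaks of Il1r2, Il1rl2, Il1rl1, Il18r1 and Il18rap. KO lies above Ctrl at the Il18r1 promoter, 36.7 kb beyond the start of Il1rl1, and at the peaks 19.4, 34.8 and 43.3 kb beyond it. KO lies below Ctrl at the Il1rl1 intron peak 7.47 kb beyond that start and at the Il1r2 peak nearest to the GENCODE start. Libraries were separate at 33.3% of all tested peaks.

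Set among 11717 genes with a promoter peak, ranked by CPM per kb, the promoter peaks of Il1r2 (17.8) and Il18r1 (17.7) stood at the 75.6 and 74.9 percentiles. Those of Il1rl1 (10), Il18rap (9.55), Il1rl2 (8.68) and Il1r1 (7.01) stood at the 32, 29.4, 24.2 and 14.3 percentiles, below the median promoter peak of 13 CPM per kb. For Il1r2 the ranked peak is the narrow one nearest to the GENCODE start. Its wider peak over the RefSeq start (chr1:40085601-40088241) had 11.2 CPM per kb, below that median. Ranked by CPM without regard to width, the order was different: Il18r1 stood at the 71.5 percentile, Il1rl1 at 66.7, Il18rap at 53.6, Il1rl2 at 51.2, Il1r2, whose peak nearest to the start is only 0.336 kb wide, at 25.8 and Il1r1 at 12.6.

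Outside the cluster, 30 names of the IL-1 pathway were listed, of which 28 matched a coding gene of the annotation and 20 could be tested. In KO 12 were higher and 8 lower, with a median log2 fold change of 0.11 and a range of −0.41 to 0.48. In edgeR none reached an unadjusted p under 0.05, which 2.5% of all genes did, and the libraries separated in 4 of the 20, against 28.8% of all genes. Of 11 names of ligands and soluble inhibitors, which may include more than 1 name of a gene, 4 were tested. Of 4 other receptors 2 were tested, and of 15 adaptors and kinases 14. Il1rap, which encodes the accessory chain shared by IL-1, IL-33 and IL-36 receptors, had 20.4 and 13.7 CPM in Ctrl and 26.1 and 10.3 CPM in KO (log2 fold change 0.09, SE 0.55). Sigirr, which encodes an inhibitory receptor of the family, had 181 and 160 CPM in Ctrl and 202 and 209 CPM in KO (0.27, SE 0.21), with both KO libraries higher. Myd88, which encodes the adaptor through which these receptors signal, had 10.9 and 17.3 CPM in Ctrl and 18.6 and 9.58 CPM in KO (−0.02, SE 0.55).

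The genes whose totals were most like that of Il1rl1 across the 4 libraries, by Euclidean distance of centred log2 CPM among 14390 genes, were Kdm8 (0.0111), Gjb1 (0.0236) and Fam69a (0.0365). The median gene was at a distance of 0.64. Of the other members, Il1rl2 was at 0.202, Il18rap at 0.278, Il1r2 at 0.29, Il18r1 at 0.321 and Il1r1 at 0.69, so Il1r1 was farther from Il1rl1 than the median gene. With 4 libraries this likeness describes these libraries only.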

How the data were processed

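Treg cells of the large intestine were profiled for H3K27ac by CUT&Tag in 2 Ctrl and 2 KO libraries. An IgG library was listed with the samples and was not analysed here. According to the submitters' processing notes and the methods of the study, reads were checked with FastQC and aligned with Bowtie2 to mm10, uniquely mapped reads without duplicates were kept, peaks were called with MACS2 against IgG at a p cutoff of 0.01, and the peaks of the libraries were merged with bedtools. Tool versions were not given in the sources used here. The deposited values were raw counts per merged peak, with no normalization by the authors. Because the peaks were called on the libraries compared, the set of peaks depends on their signal. The file's start positions were read as counted from 0, and coordinates are printed as counted from 1.

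Peaks were placed on protein-coding genes of GENCODE M21 basic and assigned to the nearest TSS. For totals per gene all peaks nearest to a gene were summed; 19 peaks outside the window that were nearest to Il1r2 were left out of its total. Peaks or totals reaching 10 counts in 2 or more libraries were tested in R 4.3.3 with edgeR 4.0.16 (quasi-likelihood test, TMM, two-sided, no covariate, Benjamini-Hochberg over all 74550 peaks or 14452 genes). For peaks the test used the trended spread, and a peak's own replicate spread did not enter. Intervals are at the 95% level. The limit for a count of 0 is 3 counts. Intervals and limits cover counting error and, for fold changes, the modelled spread. The code was tested on simulated counts. Named peaks were each member's promoter peak and highest peak, every cluster peak with an unadjusted p under 0.05, and the tested Il1rl1 intron peaks of highest and lowest fold change. The members and the lists were chosen with earlier results of these data known. Alternatives were DESeq2 1.42.0, other scalings and count minimums, a robust fit, halved counts, the replicate number as a block, each library left out, and narrower sets of peaks per gene. Sequences came from RefSeq GRCm38.p6.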

Additional observations from a re-analysis of the deposited data

How the results depend on the processing

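Of 245 log2 values recomputed under the alternatives, 220 kept their direction and 25 turned, and no peak of the cluster passed an adjusted p under 0.05 under any of them. Over the whole series the 1 higher peak became 0 with DESeq2, with no count minimum and with at least 50 counts, and 0 to 1 when a library was left out, and the 0 lower peaks became 1 with a loess offset. In the cluster the 3 peaks higher at an unadjusted p under 0.05 became 0 with DESeq2 and with at least 50 counts, and 0 to 2 without a library (0 without KO replicate 2, where 2 of the 3 peaks fell below the count minimum), while the 0 lower ones became 1 with total counts as library size and 0 to 1 without a library. With the replicate number as a block, 152 peaks of the series passed as higher and 59 as lower, and in the cluster 6 higher peaks and 1 lower peak had an unadjusted p under 0.05. The numbers are not stated to pair the libraries, and the deviations of same-numbered libraries from their group means correlated at r = 0.257 over 74550 peaks in only 2 pairs, so the block was not used. The block turned no member's or named peak's direction. It gave Il18r1 a log2 fold change of 0.33 with an unadjusted p of 0.0106, against 0.213 without the block, and the Il18r1 promoter peak 0.70 with an unadjusted p of 0.00369, against 0.0401. Il1rl1 had 0.09.

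Among members, Il1r2 turned to −0.03 with promoter and gene body peaks only and to −0.05 with peaks within 3 kb of a TSS, where Il18r1 was 0.81 (unadjusted p 0.0117), Il1rl2 to 0.02 with the loess offset, and Il1rl1 to −0.01 with at least 50 counts. Leaving out a library gave −0.81 to 0.05 for Il1r1, −0.03 to 0.18 for Il1rl1, −0.04 to 0.45 for Il18rap, 0.03 to 0.26 for Il1r2, −0.10 to −0.06 for Il1rl2 and 0.16 to 0.49 for Il18r1. Among peaks close to 0, the highest peak of Il1r2 turned to −0.03 with total counts, −0.07 with the loess offset, −0.09 with at least 50 counts and ranged from −0.14 to 0.20 without a library. For the highest peak of Il1rl1 the values were 0, −0.07, −0.06 and −0.05 to 0.17. That of Il18rap gave −0.03, −0.04, −0.09 and −0.14 to 0.19, and that of Il18r1 −0.04 with the loess offset, −0.04 with at least 50 counts and −0.07 to 0.22. The Il1rl1 promoter peak ranged from −0.01 to 0.81. The cause of these changes was not tested. At the depth of these libraries, peaks with about 10 counts per library had intervals several log2 units wide, so that only large changes could have been detected there.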
